A study of Mus musculus with 8 samples.

Results

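The genes described here are the enzymes and the transporter around the synthesis of SSEA-1, a carbohydrate antigen. They were 10 transcripts out of 13558 in the table, found by their symbols from a list drawn up with earlier results of these data known. They comprise the fucosyltransferases Fut4, Fut8, Fut9, Fut10 and Fut11, the galactosyltransferases B4galt1 and B4galt3, the N-acetylglucosaminyltransferase B3gnt2, the GDP-fucose transporter Slc35c1 and the GDP-fucose synthesis enzyme Gmds. All 10 had a row. The cells were mouse embryonic stem (mES) cells of C57BL/6 background, labelled male, derived in the study from mice homozygous for a floxed Trim71 allele and a Rosa26-CreERT2 allele, which expresses a tamoxifen-activated Cre recombinase from a ubiquitous promoter. Trim71 encodes a stem cell RNA-binding ubiquitin ligase, and the comparison asks what its loss does to the transcripts of these cells. Cre removes the last exon, so reads of the other exons remain in KO. The 4 KO libraries (genotype Trim-/- in the labels) came from cells given 500 nM 4-hydroxytamoxifen (4-OHT) for 2 days and then kept for at least 7 days, and the 4 WT libraries (Trimfl/fl) from cells of the same lines without the mutation. What vehicle the WT cells of these libraries received is not stated in the labels.

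All cells were grown with serum and LIF and were sorted magnetically for SSEA-1 before lysis, so that the product of this pathway was itself the gate: cells low in the antigen were removed from both genotypes. Both genotypes came from the same pair of cell clones, and 5 libraries (3 KO, 2 WT) were of clone E3 and 3 (1 KO, 2 WT) of clone 1. The KO libraries carried the day numbers 2, 3, 4 and 5 and the WT libraries 1, 3, 4 and 5 for replicates 1 to 4, so that days 3, 4 and 5 each held 1 library of both genotypes, which also shared a clone. Nothing in the labels ties replicates to separate cultures, and p-values here measure only the spread between these libraries.

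SSEA-1 is the Lewis x epitope, a fucose attached to an N-acetyllactosamine unit at the end of a glycan chain. Lactosamine chains are made by galactosyltransferases and N-acetylglucosaminyltransferases acting in turn, and fucose is then added from GDP-fucose, which is made in the cytosol and carried into the Golgi. The antigen appears in the early mouse embryo and is lost as cells differentiate, which is why it serves to sort undifferentiated mES cells. Messenger RNA levels say nothing directly of the amount of enzyme or of the antigen on the cell.

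The targeted gene was examined first. For Trim71, the KO libraries gave 500.3, 793, 733 and 247 normalized counts in order of replicate and the WT libraries 2782, 2736, 1988 and 2584. All KO values were below all WT values, with a log2 fold change of -2.39 (SE 0.35), although the adjusted limma p over all transcripts was 0.294. A clone correction by the authors had moved each Trim71 value by 277, which is 17.9% of its mean. With it undone, the KO libraries held 223, 516, 456 and 524 and the WT libraries 3060, 2459, 1711 and 2861. All KO values were still below all WT values, but KO replicate 4 was then the highest in KO and not the lowest. The pluripotency genes Pou5f1, Nanog, Sox2, Esrrb, Klf4, Tfcp2l1, Zfp42 and Dppa5a together summed to 61971 to 87934 normalized counts in KO and 56595 to 78526 in WT. By sign 5 of these 8 were higher in KO and 3 lower, and 0 had an unadjusted limma p under 0.05. With day as a block 1 did, against 19.2% of all transcripts. It was Klf4, at a log2 fold change of 0.73 (p of 0.00132), beside 0.53 (p of 0.227) over 8 libraries. With limma's voom on whole reads recovered from the values and the same block, Klf4 (p of 0.000274) and Sox2 (p of 0.0245) were under 0.05, against 23.8% of all transcripts. Sox2 was higher in KO by 0.23 in the block without voom (p of 0.0634). Of 8 fibroblast markers, 4 (Col3a1, Lum, Dcn and Postn) had no row, and the other 4 summed to 74.6 to 178 over the libraries. By sign 3 of those 4 were higher in KO and 1, Pdgfrb, lower. Pdgfrb alone had a limma p under 0.05 with day as a block (log2 fold change of -0.73, p of 0.00242), on 2 to 21 recovered reads per library. Of 8 endoderm markers, 7 had a row and summed to 391 to 696 in KO and 68.9 to 802 in WT, WT replicate 1 being the lowest, with 4 of them (Gata6, Sox17, Foxa2 and Cubn) reaching the floor value of 1 in some library. By sign 6 of these 7 had higher fitted values in KO, and the list's median log2 fold change was 1.32 (0.81 with day as a block, which leaves out WT replicate 1). In WT replicate 1 the clone correction of the authors had lowered the endoderm values that could be checked. Gata4, Sox7 and Dab2 stood there at 1.72, 11.1 and 52.0. Their recovered reads in that library were 63, 19 and 95, each worth 0.838 units. Of the 7, 0 had an unadjusted limma p under 0.05, while with the block Dab2 did, at a log2 fold change of -0.75 (p of 0.0288). With voom in the blocked fit, which left out the 4 genes at the floor, Dab2 (p of 0.00849), Gata4 (p of 0.0201) and Sox7 (p of 0.0366) did. Gata4 and Sox7 were higher in KO, by 0.57 and 0.81 in the block without voom. Of 6 mesoderm markers 4 had a row, with sums of 137 to 168 in KO and 103 to 173 in WT, and 6 neural markers summed to 808 to 1059 in KO and 968 to 1629 in WT. The mesoderm markers split into 2 higher and 2 lower in KO, and the neural markers into 2 higher and 4 lower. Nes, one of the neural markers, was below all WT libraries in every KO library. Its log2 fold change was -0.50 (unadjusted limma p of 0.0161, and 0.0206 with the block). With voom in the blocked fit both Nes (p of 0.0125) and Sox1 (p of 0.0221) were under 0.05. Sox1 went the other way, higher in KO by 0.48 in the block without voom (p of 0.0721). The mesoderm marker Eomes was higher by 0.51 (unadjusted limma p of 0.0384, and 0.0343 with the block). That call for Eomes ended without KO replicate 4 (log2 fold change of 0.41, p of 0.170). It also ended when voom was used in the blocked fit (p of 0.0972). The part these marker levels play in the results below was not tested. In such bulk samples, fewer cells of a type and less RNA per cell cannot be told apart. Whole reads recovered from the values came to between 7032707 and 26124250 per library.

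Across all 10 genes the data showed no change past the study's criterion, an unadjusted p under 0.05 with a fold change of at least 1.5. In limma fits on log2(value + 1), with terms for genotype and clone, 0 of the 10 passed it, against 4.25% of all transcripts (1.76% higher and 2.49% lower in KO). No member had an adjusted p under 0.05, and neither did any other transcript (0%). With voom on recovered reads 0 transcripts did, and with voom and day as a block 2 did, Trim71 itself and Foxj1, which was named after its value was seen and is not a member. At an unadjusted p under 0.05 there was 1 member, B3gnt2, which was higher in KO, against 9.09% of all transcripts. By sign alone 4 members were higher and 6 lower in KO. Their median log2 fold change was -0.16, beside -0.00036 over all transcripts.

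**Figure D1:**
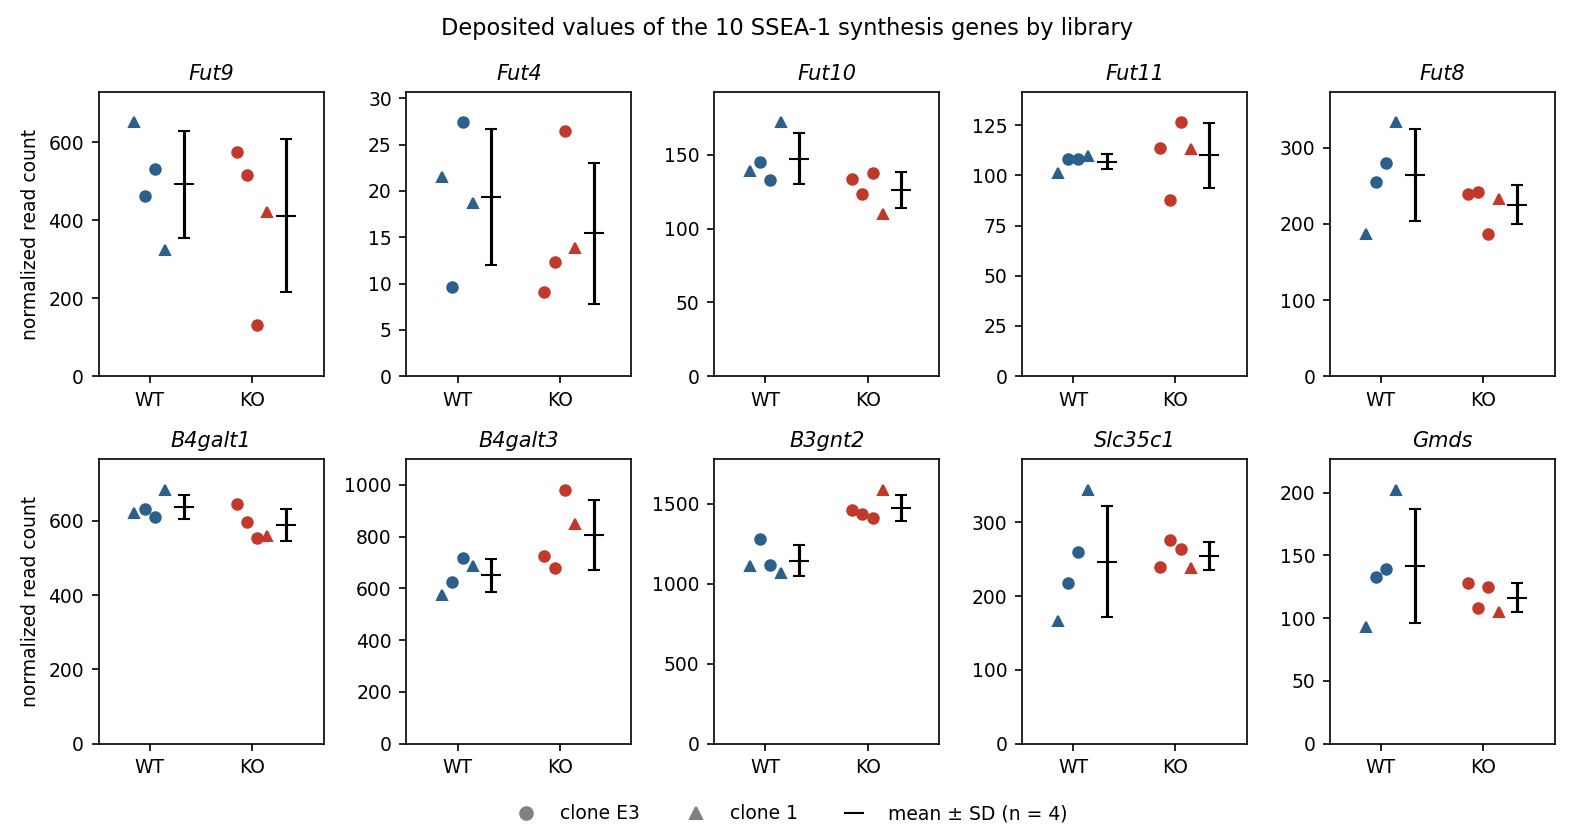
Deposited values of the 10 genes on linear axes from 0, in normalized read counts, with 1 point per library (circles clone E3, triangles clone 1) and bars for the mean ± SD of 4 libraries. In B3gnt2 the 4 KO libraries sit above all 4 WT libraries, while the groups overlap in the other 9 genes.

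Levels were compared between genes per 1000 bases of the longest RefSeq-linked transcript, since long transcripts gather more reads. B3gnt2 was the most abundant per length, at 428 normalized counts per 1000 bases over the 8 libraries, ahead of B4galt3 at 365, and both lay in the upper part of all transcripts (percentiles 79.9 and 76.8). B4galt1 followed at 154, clear of both neighbours in every library. Slc35c1, Gmds and Fut8 formed the next tier at 79.9, 75.3 and 72.9 and overlapped each other in range. Fut10, Fut9 and Fut11 came next, at 38.8, 37.2 and 26.1. The range of Fut9 overlapped those of Fut10 and Fut11, while Fut10 (lowest 31.2) stayed above Fut11 (highest 30.4). Fut4 stood alone at the bottom with 4.27 (2.23 to 6.73), at percentile 3.63 of the transcripts with a length.

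**Figure D2:**
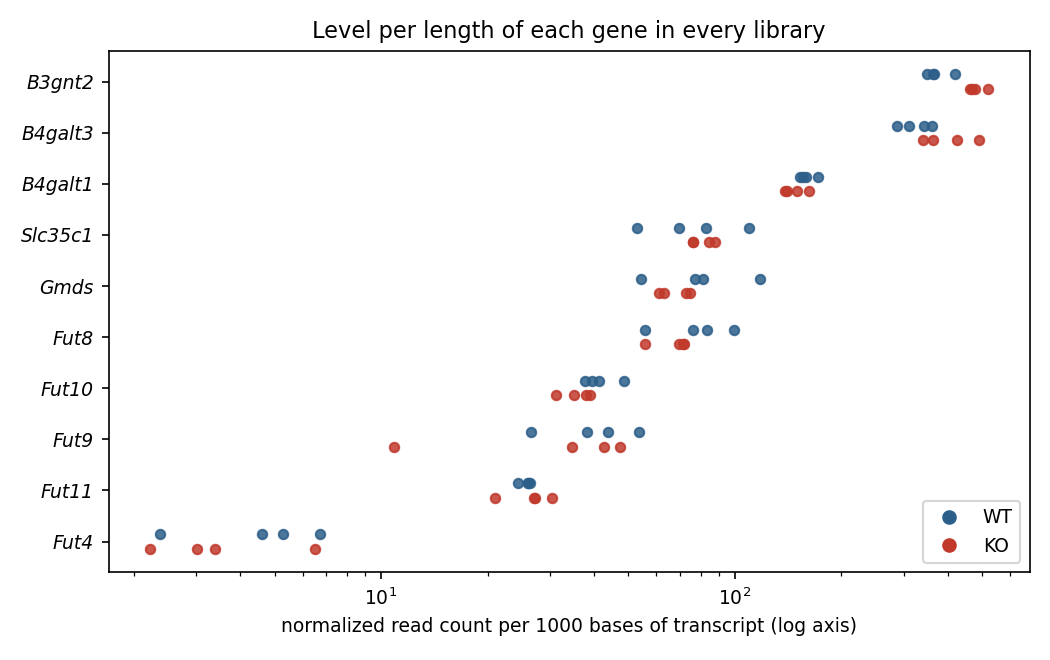
Normalized read count per 1000 bases of transcript (log axis) for each gene, 1 point per library, blue WT and red KO, ordered by the mean. B3gnt2 and B4galt3 lead, Fut4 lies below 7 in every library, and 1 KO library of Fut9 lies apart at 10.9.

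The fucosyltransferases that can place the fucose of Lewis x were taken first. Fut9 is the enzyme known to make SSEA-1 in the early mouse embryo. It spans 25609333 to 25800003 on chromosome 4 (minus strand) in GRCm38, the mm10 build, and its longest transcript has 3 exons and 12134 bases. In order of replicate, the KO libraries held 576, 517, 132 and 421 normalized counts of Fut9 and the WT libraries 651, 463, 531 and 323. The KO mean was 412 ± 197 (SD, n = 4) and the WT mean 492 ± 137 (SD, n = 4). KO replicate 3 was far below the rest, and the other 3 KO libraries lay inside the WT range. The log2 fold change was -0.39 with a 95% interval of -1.59 to 0.81, and limma's unadjusted p was 0.468. Without KO replicate 3 it was 0.034, so the sign of the difference rested on that library.

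For Fut9, 159 reads were recovered in KO replicate 3 against 606 in both KO replicates 1 and 2. Long transcripts as a class were also lower in KO replicate 3. Over 565 transcripts of at least 8000 bases and a mean of at least 50, the median deviation from the mean of the other libraries was -0.27 (log2) in KO replicate 3 and 0.028 over the 9974 shorter ones. Fut9 deviated by -1.87 in that library, a deviation lower than that of all but 2.30% of the long transcripts. The same long transcripts deviated by a median of -0.19, 0.062 and -0.038 in KO replicates 1, 2 and 4 and by 0.19, 0.19, 0.17 and 0.054 in WT replicates 1 to 4. Fut9 itself deviated by 0.54, 0.37 and 0.030 in KO replicates 1, 2 and 4 and by 0.75, 0.18, 0.41 and -0.41 in WT replicates 1 to 4. It did not follow the long transcripts in every library: in KO replicate 1, where they were low, 99.3% of them lay below it, and in WT replicate 4, where they were not, 1.24% did. The long transcripts' median log2 fold change between the genotypes was -0.24, against 0.014 for the shorter ones. For transcripts under 2000 bases it was 0.12. Among the 10 genes, B4galt3 (1998 bases, log2 fold change of 0.30) and Gmds (1713 bases, -0.25) are that short. The part of transcript length in the differences of Fut9 and of these genes was not tested.

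**Figure D3:**
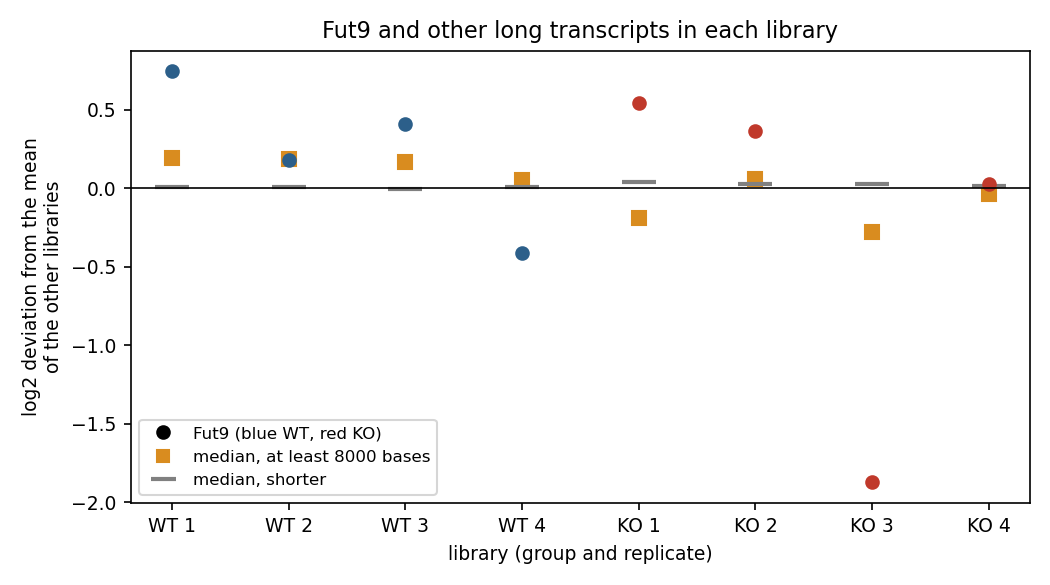
Log2 deviation of each library from the mean of the other 7, for Fut9 (circles, blue WT and red KO), as the median of 565 long transcripts (squares) and as the median of 9974 shorter ones (dashes). Fut9 lies at -1.87 in KO replicate 3, where the long transcripts lie at -0.27.

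The transcripts whose pattern over the 8 libraries was most like that of Fut9 were Tcf4, Palb2, Pnisr, Trim24 and Setdb2, with Pearson's r of 0.98, 0.97, 0.97, 0.97 and 0.97 on the log2 scale among 11088 transcripts with a mean of at least 50. None is a glycosyltransferase. The points share the low library: Tcf4, for example, was at 214 normalized counts in KO replicate 3 and at 342 to 454 elsewhere, and without that library r was 0.82 to 0.88 for the same transcripts. With the clone correction of the authors undone, r over the 8 libraries was 0.97, 0.91, 0.87, 0.95 and 0.79 in the same order.

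Fut4, which also makes Lewis x and is the enzyme known for it in blood cells, was barely detected. It is a gene with 1 exon that spans 14748459 to 14752122 on chromosome 9 (minus strand). Normalized counts of Fut4 ran to 9.08, 12.3, 26.5 and 13.8 in the KO libraries, in order of replicate, and to 21.5, 9.68, 27.4 and 18.7 in the WT libraries. The groups overlapped over nearly their whole range, and on the deposited values the libraries of day 4 were the highest in both. The KO mean was 15.4 ± 7.64 (SD, n = 4) and the WT mean 19.3 ± 7.38 (SD, n = 4), which gave a log2 fold change of -0.29 and a 95% interval of -1.26 to 0.68, and without WT replicate 3 the fold change was 0.044. Recovered reads were 3, 7, 22 and 15 in KO and 33, 2, 48 and 19 in WT. The clone correction of the authors had moved each Fut4 value by 6.16, which is 35.4% of its mean.

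Per length, Fut9 exceeded Fut4 in all 8 libraries. Fut9 made up 85.3% to 94.1% of the sum of both in the WT libraries, and 95.5%, 93.4% and 91.1% in KO replicates 1, 2 and 4. KO replicate 3 again stood apart at 62.6%. With the clone correction undone its share was 70.8%, and that of the other libraries lay between 80.6% and 98.5%.

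Fut10 and Fut11, which belong to the same family by sequence, came out at low levels with little spread. Fut10 spans 31187313 to 31265284 on chromosome 8 (plus strand). In order of replicate, Fut10 stood at 134, 124, 138 and 109.9 normalized counts in the KO libraries and at 139, 145, 133 and 172 in the WT libraries. In 2 KO libraries the deposited value was below all WT libraries. With the clone correction undone only KO replicate 2 was, at 107.0 against 116.4 in the lowest WT library. The log2 fold change of Fut10 was -0.23 (95% interval -0.55 to 0.10, unadjusted limma p of 0.147). Fut11 spans 20694968 to 20700197 on chromosome 14 (plus strand). Its values ranged from 87.7 to 126 in KO and from 101 to 109.7 in WT, and its log2 fold change of 0.033 (95% interval -0.30 to 0.37) was the one nearest to 0 among the 10 genes. The whole Fut11 interval lay within a fold of 1.5 in either direction.

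Fut8 adds the core fucose at the base of N-glycans and does not make Lewis x, but draws on the same GDP-fucose. It spans 77237430 to 77475998 on chromosome 12 (plus strand). For Fut8, the KO libraries gave 239.7, 242, 187 and 233 normalized counts in order of replicate and the WT libraries 187, 255, 280.3 and 333. On the deposited values WT replicate 1 was as low as the lowest KO library and the other 3 WT libraries were above all KO libraries. The clone correction of the authors had moved each Fut8 value by 35.1, which is 14.3% of its mean. With the correction undone, the KO libraries held 205, 207, 152 and 268 and the WT libraries 222, 220, 245 and 368. WT replicate 1 was then above KO replicates 1 to 3, and KO replicate 4 was above WT replicates 1 to 3. Over 8 libraries the log2 fold change was -0.21 (95% interval -0.70 to 0.28, unadjusted limma p of 0.341). With day as a block over the 6 libraries of days 3, 4 and 5 it was -0.39 (SE 0.14) with an unadjusted limma p of 0.0495, and with limma's voom on the recovered reads and the same block -0.45 with a p of 0.0241. The adjusted p-values were 0.260 and 0.170. WT replicate 1, of day 1, has no partner and is not in those fits. The KO library was lower than the WT library on each of the 3 days, by -0.076, -0.58 and -0.51 on the log2 scale.

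The enzymes that build the lactosamine chain came next. B3gnt2, the main enzyme that adds N-acetylglucosamine to extend such chains, spans 22834739 to 22860336 on chromosome 11 (minus strand). For B3gnt2, the KO libraries gave 1463, 1436, 1410.2 and 1587 normalized counts in order of replicate and the WT libraries 1110.1, 1284, 1120.1 and 1067. It was the only one of the 10 genes whose groups did not overlap, with all 4 KO libraries above all WT libraries, which held for 5.48% of all transcripts, and 4.62% had all KO libraries below. The KO mean was 1474 ± 78.5 (SD, n = 4) and the WT mean 1145 ± 95.1 (SD, n = 4). The log2 fold change was 0.36 (SE 0.11, 95% interval 0.092 to 0.63), a fold of 1.28, with an unadjusted limma p of 0.0154 and an adjusted p of 0.460. An exact permutation test, two-sided, gave p = 0.0286, which is the lowest possible with 4 libraries against 4.

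On the days with both genotypes B3gnt2 was higher in KO by 0.16, 0.33 and 0.57 on the log2 scale, and with day as a block the fold change was 0.36 with an unadjusted limma p of 0.0421. Without KO replicate 4, which alone represents KO in clone 1, it was 0.26 and limma's unadjusted p was 0.122. A test of whether the genotype difference itself differed between the clones gave -0.28 (SE 0.24, unadjusted limma p of 0.286). For all 10 genes this interaction had an unadjusted p above 0.05 (0 of 10, against 2.59% of all transcripts). Exons of B3gnt2 overlap those of 3 annotated genes that have no row here, on both strands, and the library kit does not mark the strand, so that the count of B3gnt2 is uncertain to that extent.

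B4galt3, a galactosyltransferase of lactosamine synthesis, spans 171270328 to 171276895 on chromosome 1 (plus strand). In order of replicate, the KO libraries held 724, 679.9, 981 and 849 normalized counts of B4galt3 and the WT libraries 575, 623, 719 and 686. In 3 KO libraries the value was above all WT libraries, and KO replicate 2 lay within the WT range. The KO mean was 808 ± 135 (SD, n = 4) and the WT mean 651 ± 64.4 (SD, n = 4), which gave a log2 fold change of 0.30 (95% interval -0.078 to 0.68, unadjusted limma p of 0.103). With day as a block it was 0.29 with a p of 0.0553, and in the same block with voom on the recovered reads 0.31 with a p of 0.0200 and an adjusted p of 0.164. B4galt3 shares 791 of its 5467 annotated exon bases with Ppox, on the opposite strand, so that reads there cannot be told apart. Ppox itself had a KO mean of 279 ± 38.9 (SD, n = 4) and a WT mean of 254 ± 50.5 (SD, n = 4), and its log2 fold change was 0.15 (SE 0.19). B4galt3 is also among the transcripts under 2000 bases, whose median log2 fold change was 0.12, and the part of length in its difference was not tested.

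B4galt1, the founding member of the same family, spans 40804602 to 40853984 on chromosome 4 (minus strand). Normalized counts of B4galt1 ran to 646, 598, 554 and 558 in the KO libraries, in order of replicate, and to 621, 633, 609.6 and 683 in the WT libraries. Although 3 KO libraries were below all WT libraries, the difference was small: the log2 fold change was -0.11 (95% interval -0.38 to 0.15, unadjusted limma p of 0.338), within a fold of 1.5 in either direction.

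The supply of GDP-fucose was represented by Gmds and Slc35c1. Gmds encodes the dehydratase that starts the synthesis of GDP-fucose from GDP-mannose, and spans 31819583 to 32338762 on chromosome 13 (minus strand). Normalized counts of Gmds ran to 128, 108, 125 and 105 in the KO libraries, in order of replicate, and to 92.8, 133, 139 and 202 in the WT libraries. On the deposited values the KO libraries were tightly grouped inside a wide WT range. With the clone correction undone, the KO libraries held 115, 95.6, 112 and 117 and the WT libraries 106, 120, 126 and 215. KO replicate 2 was then below all WT libraries. The log2 fold change was -0.25 (95% interval -0.82 to 0.32, unadjusted limma p of 0.334), and with day as a block -0.46 with a p of 0.0713. The same-day differences were -0.29, -0.16 and -0.94.

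Slc35c1, the transporter that carries GDP-fucose into the Golgi, spans 92452764 to 92460518 on chromosome 2 (minus strand). In order of replicate, the KO libraries held 239.5, 277, 265 and 239 normalized counts of Slc35c1 and the WT libraries 166, 218, 259.6 and 344. All KO libraries lay inside the WT range. The log2 fold change was 0.080 (95% interval -0.47 to 0.63, unadjusted limma p of 0.740) and took the other sign, -0.052, with day as a block.

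**Figure D4:**
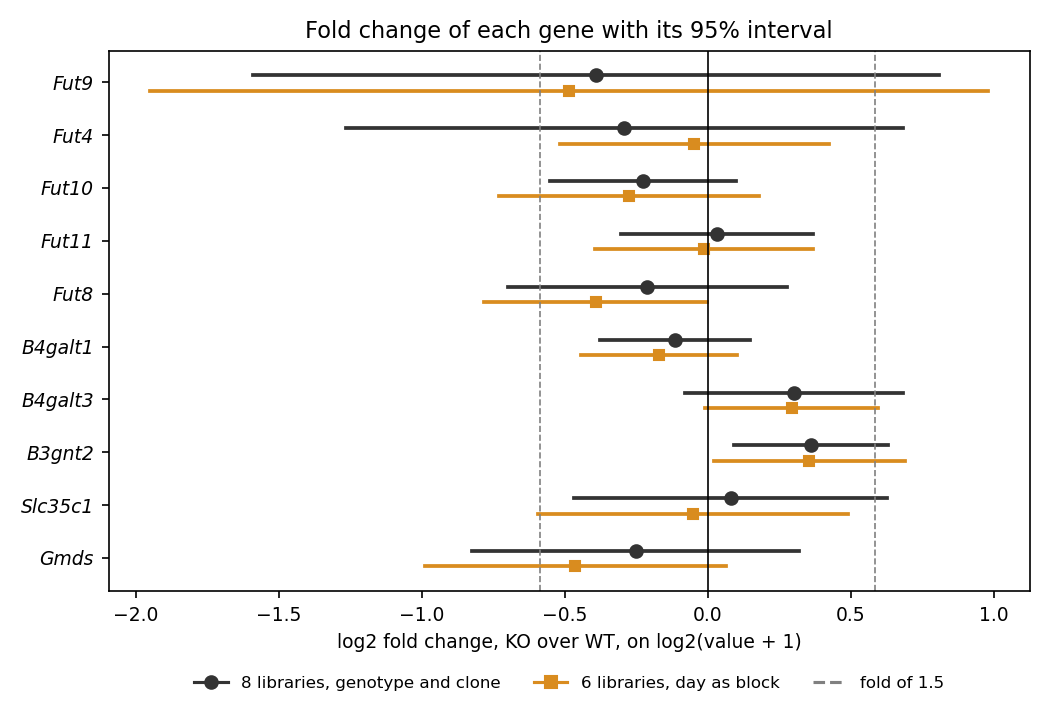
Log2 fold change of KO over WT for each gene with its 95% interval, from 8 libraries with genotype and clone (black circles) and from 6 libraries with day as a block (orange squares). Dashed lines mark a fold of 1.5. Only the intervals of B3gnt2 (both fits) and Fut8 (day as a block) leave out 0.

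Pairing by day was read over all 10 genes together. The KO library was higher on all 3 days in 2 genes (B3gnt2 and B4galt3), against 24.6% of all transcripts, and lower on all 3 days in 3 genes (Fut8, B4galt1 and Gmds), against 25.5%. With day as a block 2 genes had an unadjusted p under 0.05 (B3gnt2 and Fut8), against 19.2% of all transcripts, and 3 genes did in the same block with voom on recovered reads (B4galt3 in addition), against 23.8%. Read against those shares, the counts set the 10 genes apart in neither fit, and none of the 10 passed the criterion in either.

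The precision differed greatly between genes. In the fit over 8 libraries, the 95% interval of the log2 fold change lay wholly within a fold of 1.5 in 3 genes (Fut10, Fut11 and B4galt1). Larger differences were outside the interval in that fit. In the other 7 it reached past 1.5 in at least 1 direction. For Fut9 the interval ran from a fold of 0.332 to a fold of 1.75, and for Fut4 from 0.416 to 1.60. With day as a block the interval of Fut10 also reached past a fold of 1.5, at a log2 fold change of -0.73 to 0.18.

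Clones were compared after the correction of the authors had been undone, since the deposited values carry no clone effect. With voom on the recovered reads, 0 of the 10 genes differed between clones E3 and 1 at an unadjusted p under 0.05, against 7.36% of all transcripts. The difference nearest to that threshold was that of Fut10, lower in clone E3 by a log2 difference of -0.37 (SE 0.17, unadjusted limma p of 0.0577), followed by Fut4 with -1.23 (SE 0.62) and an unadjusted limma p of 0.0818.

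The 10 genes varied with each other over the 8 libraries in the following way, as a description over points that share their libraries. On the log2 scale, Fut8 and Gmds had the highest Pearson's r, 0.81, and Slc35c1 with Gmds 0.77. Fut9 and B4galt3 had the lowest, -0.78, with KO replicate 3 lowest in the one and highest in the other.

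The other genes of the pathway were read from lists of 53 genes, of which 48 had a row. Of these 2 passed the criterion, both higher in KO, and 0 were lower (1.76% and 2.49% of all transcripts), and 0 had an adjusted p under 0.05. Their median log2 fold change was -0.035. Of the 48, 3 had an unadjusted p under 0.05 (Fut2, B3gnt3 and Mgat2), against 9.09% of all transcripts. In 3 genes all KO libraries were above all WT libraries and in 1 all were below, against 5.48% and 4.62%. Blocking by day gave 9 of the 48 an unadjusted p under 0.05, against 19.2%: B3gnt3 again, and Pofut2, Fuk, Galk1, B4galt2, St3gal4, St3gal5, St6gal1 and Gcnt1, some of them named after their values were seen.

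**Figure D5:**
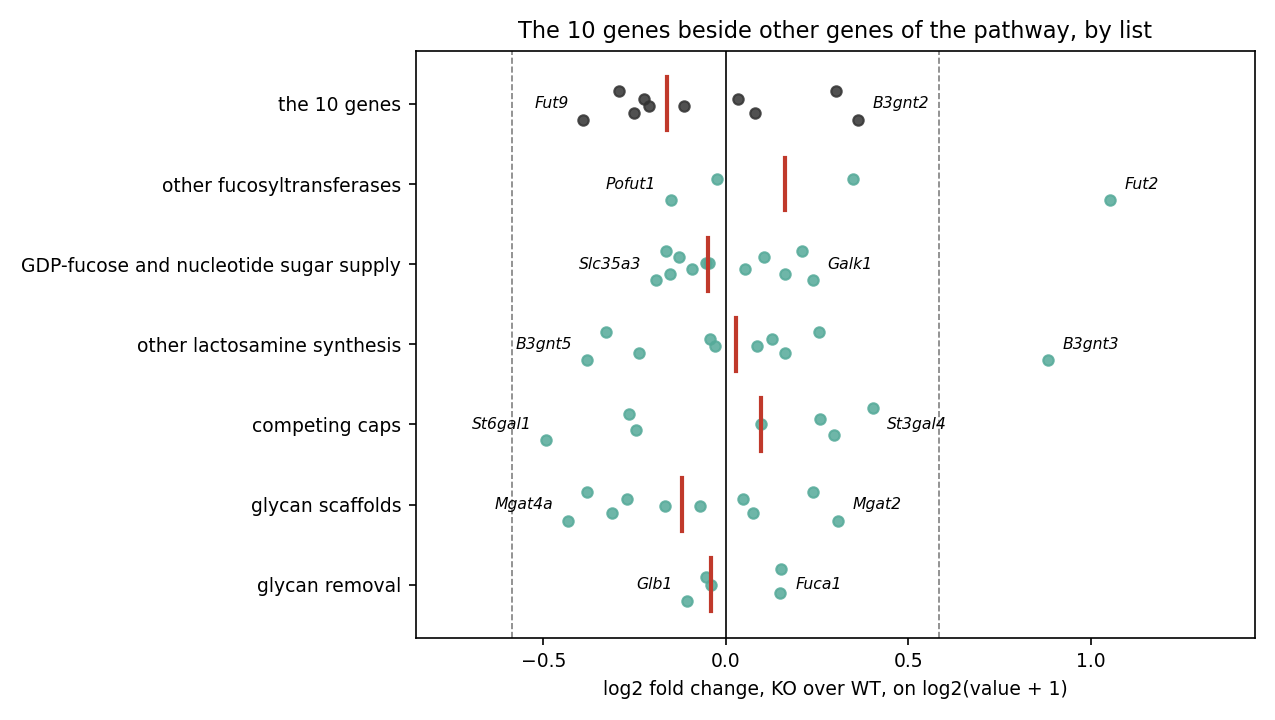
Log2 fold change of KO over WT for the 10 genes and for 6 lists of other pathway genes, 1 point per gene, with the median of each list as a red bar and dashed lines at a fold of 1.5. Only Fut2 and B3gnt3 lie past the line, and the lowest and highest gene of each list are named.

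Among other fucosyltransferases, 4 of 5 had a row (Fut7 had none). Fut2, which makes a different fucosylated structure on terminal galactose, rose in KO at a low level. In order of replicate, the KO libraries held 18.2, 15.5, 19.1 and 24.7 normalized counts of Fut2 and the WT libraries 9.42, 12.97, 10.4 and 3.29. The groups did not overlap, and the log2 fold change was 1.05 (SE 0.37, unadjusted limma p of 0.0244, adjusted p of 0.487). The call rested on few reads, 3 to 22 per library in WT and 17 to 20 in KO, and ended with day as a block (unadjusted limma p of 0.0680) and without KO replicate 4 (log2 fold change of 0.56, p of 0.183). Pofut1, which fucosylates Notch receptors, was the lowest of the list at -0.15.

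Among the other genes of lactosamine synthesis, 10 of 12 had a row (B3gnt4 and B3gnt9 had none). B3gnt3, a further N-acetylglucosaminyltransferase, rose in KO, from 33.9, 24.5, 67.1 and 37.8 normalized counts in WT replicates 1 to 4 to 51.8, 55.9, 104 and 83.7 in KO replicates 1 to 4. The groups overlapped, since WT replicate 3 lay above KO replicates 1 and 2. The log2 fold change was 0.88 (SE 0.37, unadjusted limma p of 0.0466), and 0.97 with day as a block, with a p of 0.00271. Without KO replicate 4 it was 0.71 and the p was 0.190, and without WT replicates 1 or 4 the p was also above 0.05. B3gnt5, which starts lactosamine chains on glycolipids, was the lowest at -0.38 (unadjusted p of 0.314), and KO replicate 3, at 128, was again far below the 301 to 393 of the other libraries.

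The supply of GDP-fucose and other nucleotide sugars was covered by 12 genes, all with a row, with 0 past an unadjusted p of 0.05. Galk1, the galactokinase, was the highest, with a log2 fold change of 0.24 and an unadjusted limma p of 0.207. With day as a block 2 genes of the list had a p under 0.05, Galk1 (log2 fold change of 0.32, p of 0.0301) and the fucokinase Fuk (0.31, p of 0.0313). Tsta3, which completes the synthesis of GDP-fucose after Gmds, was above all WT libraries in every KO library, with a KO mean of 803 ± 48.5 (SD, n = 4), a WT mean of 696 ± 36.1 (SD, n = 4), a log2 fold change of 0.21 and a p of 0.0960. Slc35a3, a Golgi transporter of UDP-N-acetylglucosamine, was the lowest at -0.19, and the median of the list was -0.049.

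Genes listed as competing caps, that is sialyltransferases and Ggta1, held 7 rows of 9 (St3gal6 and St6gal2 had none), with 0 past an unadjusted p of 0.05. Whether each of these enzymes acts on the chain ends that can carry Lewis x was not tested. The listed genes ranged from -0.49 for the sialyltransferase St6gal1 to 0.40 for St3gal4. In the day block 3 of them had a p under 0.05, St3gal4 at 0.37 (p of 0.0210), St3gal5 at -0.40 (p of 0.0421) and St6gal1 at -0.35 (p of 0.0489). The 10 genes of glycan scaffolds ranged from -0.43 for Mgat4a to 0.31 for Mgat2, both N-glycan branching enzymes, and Mgat2 had an unadjusted limma p of 0.0473. For Mgat2 that ended with day as a block (p of 0.0624) and without KO replicate 4 (p of 0.229). In the same list Mgat1, which starts complex N-glycans, was above all WT libraries in every KO library (log2 fold change of 0.24) and C1galt1c1, the chaperone of the core O-glycan galactosyltransferase, below (log2 fold change of -0.31), with unadjusted p-values of 0.113 and 0.0585. The 5 genes of glycan removal ranged from -0.11 for Glb1 to 0.15 for Fuca1, a lysosomal fucosidase.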

How the data were processed

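The 4 KO and 4 WT mRNA-seq libraries were grouped by their labels. The authors called bases with CASAVA 1.8, aligned read pairs to mm10 with TopHat2 and Bowtie2 2.2.1 and counted reads per RefSeq transcript in Partek 6.6, with versions as in the submitters' processing notes. They normalized with DESeq2, corrected for batch and set values under 1 to 1, so that the deposited values are a normalized signal (normalized read counts), not raw counts. The authors removed weak transcripts, and the weakest left had 10.01 as the larger of its group means. Per-sample columns left unused numbered 0.

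A linear clone effect remaining in the deposited values was at most 0.00063% of a transcript's mean wherever no value was at the floor, so the correction had subtracted it. To undo it, each value was written as a whole number of reads, scaled by a factor of its library, with an additive shift of its transcript. That gave unique reads for 13310 transcripts (98.2%, all 10 members included), while 208 with a value at the floor and 40 with several solutions were left out. 1 read was worth 0.443 to 1.76 units. Unless stated otherwise, values of single libraries are the deposited ones, with the clone correction in place.

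The genotypes were compared by limma 3.58.1 (R 4.3.3) on log2(value + 1), which understates the change of low transcripts, with genotype and clone as terms and Benjamini-Hochberg adjustment over all 13558. Single values had exact two-sided permutation tests over 70 assignments. Steps were tested on simulated data. Days pair libraries: with the correction undone, deviations from group means correlated at 0.56, 0.65 and 0.50 on days 3, 4 and 5, and at a median of -0.19 over 13 pairs of different days. On the deposited values, which the block fits without voom used, they were 0.42, 0.54 and -0.23, so that the day 5 pair went the other way there. The pairing itself came from the day number in the labels. Positions come from RefSeq (GRCm38.p6), and lengths, found for 12853 transcripts, from GENCODE vM21. Python 3.11.15, numpy, pandas, scipy and matplotlib did the rest. Alternatives were other pseudocounts, filters, priors, scalings, terms and subsets of libraries. The clone comparison and the comparison by transcript length were added after the data were seen.

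Named genes were all 10 members, Trim71, list genes past the criterion or an adjusted p of 0.05, the highest and lowest of each list, and the 5 transcripts most like Fut9. Others (Ppox, Nes, Dab2, Eomes, Tsta3, Mgat1, Mgat2 and C1galt1c1 among them) were named after their values were seen, or as the highest of a list. Members and lists were chosen with earlier results of these data known, and 1 list gene is not reported here.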

Additional observations from a re-analysis of the deposited data

Results flagged for a closer look

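In groups of 4 libraries, a library was singled out where its gap to the nearest of the others, divided by the range of the group, was above Dixon's 95% critical value. Of 22 groups examined (10 genes and Trim71, both genotypes) 2 had such a library, and about 1 in 20 is expected by chance. KO replicate 3 was the lowest for Fut8, at 187 normalized counts with the other KO libraries between 233 and 242. WT replicate 1 was the lowest for Fut11, at 101 with the others between 108 and 109.7. Both were singled out on the deposited values. With the clone correction undone, KO replicate 3 held 152 of Fut8 and the other KO libraries 205, 207 and 268. For Fut11, WT replicate 1 was then not the lowest, at 105.6 with the others at 103.9, 104.0 and 114.0. Fut9 in KO replicate 3 stayed below Dixon's critical value because the remaining KO libraries were themselves spread.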

How the results depend on the processing

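Under 19 alternatives, 0 of the 10 genes passed the criterion in any, and the lowest adjusted limma p was 0.157 (B3gnt2, voom on recovered reads with the replicate block by day). Of 189 values of single genes, 171 kept their direction and side of the threshold, 3 became weaker, 3 stronger and 12 reversed. Members with an unadjusted limma p under 0.05 numbered 1, and 2 with the replicate block by day, 3 with voom and the block, 0 over days 3 to 5 without a block, 0 in clone E3 only, and 0 to 1 when a replicate was left out (0 without KO replicate 4). Pathway genes past the criterion numbered 2, and 1 with a mean of at least 50, 0 on untransformed values, 1 with the block, 1 over days 3 to 5 without it, 0 in clone E3 only, 1 with voom on recovered reads, and 0 to 3 when a replicate was left out.

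With each replicate left out in turn, Fut4 ranged from -0.70 to 0.044 (highest without WT replicate 3), and Fut9 from -0.60 to 0.034 (highest without KO replicate 3). Fut11 went to -0.013 with the replicate block, -0.013 over the same 6 libraries without it, -0.0048 in clone E3 only, and -0.031 to 0.13 over the libraries left out in turn. Slc35c1 went to -0.052 with the block, -0.052 without it over the same libraries, -0.047 with voom and the block, and -0.065 to 0.24 over the libraries left out in turn. The genotype by clone interaction of Fut4 was -0.28 with voom on recovered reads in place of 0.33. The cause was not tested. Among the 10 genes the block changed no other call by unadjusted p than those of Fut8 and, with voom, B4galt3. Among the 48 pathway genes it moved that count from 3 to 9 and ended the calls of Fut2 and Mgat2. Recovered reads per library were as few as 2 for Fut4 and 3 for Fut2.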
